A study of Mus musculus with 40 samples.

Results

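Imprinted genes are expressed mainly from the copy inherited from 1 parent, and 42 of them were followed here in mouse embryonic stem (ES) cells. The list holds 22 genes expressed from the maternal copy and 20 expressed from the paternal copy. A member was found on the arrays by its current or older symbol, and 38 of the 42 had a probe on at least 1 array design, out of 14147 gene symbols on the arrays. Each design carried 37 members, 21 maternally and 16 paternally expressed. Peg3 was only on the late arrays, Mcts2 only on the other designs, and Peg10, Rtl1, Ube3a and Slc38a4 had no probe identified here. The arrays measured total RNA of a gene, so which parental copy was read cannot be told from them.

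Genomic imprinting rests on DNA methylation that is set differently in the egg and the sperm and kept on after fertilization. The genes lie in clusters, each governed by an imprinting control region that often holds back a set of genes on one copy through an insulator or a non-coding RNA. Many of the genes act on growth and on the placenta, and paternally expressed genes are often described as promoting fetal growth while maternally expressed genes restrain it.

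The samples were hybridised to 40 two-colour arrays on which Cy3 carried the sample and Cy5 carried the Universal Mouse Reference RNA, a fixed mixture of RNA that was the same on all arrays. ZHBTc4 ES cells (strain 129/Ola), a line in which both Pou5f1 alleles are disrupted and a Pou5f1 transgene is shut off by tetracycline (Tet), were harvested without Tet (0 hr) and once a day from 24 to 120 hr of Tet, with 3 arrays at each of these 6 times (late arrays). A separate experiment covered the first day, at 0 hr and after 3, 6, 12 or 24 hr of Tet, with 2 arrays each (early arrays). In the Nanog experiment, 4 lines were cultured for 3 days with leukemia inhibitory factor (LIF), without LIF, or with LIF and 1 uM retinoic acid (RA), with 1 array per line and medium. The lines were a clone with an integrated Nanog transgene (Nanog/EF1#6, strain 129SvEv-Tac) and its parental line 129.3 (passage 12), and a clone labelled as carrying an episomal Nanog transgene and its parental line MG1.19 (strain 129Sv, passage 5). Every line is 1 clone or culture, every Tet-treated sample also received the drug itself, and nothing in the labels says that replicates were separate cultures, so that p-values measure only the spread between these samples. The design text of the series pairs the clones with different parents, and the treatment protocol of the late samples is that of a different construct. Clones were paired with parents here by their strain labels, and the late samples were taken as ZHBTc4, as their titles say.

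Values are log2(Cy3/Cy5), so 0 means as much signal as the reference and a difference of 1 means a 2-fold difference. A gene was represented by its brightest probe. Shares of all gene probes below also count every probe without a gene symbol, while all members are named genes. Gene symbols numbered 11381 on the late arrays, 13898 on the early arrays and 13908 in the Nanog experiment. The members are thus set beside a wider set, and shares over named genes alone are not given here. A difference was called when its fold change was at least 1.5 and its adjusted p in limma's test was below 0.05. The adjustment was by Benjamini-Hochberg over all gene probes fitted. Calls at some time or over all times came from limma's F test over all times of a series against 0 hr. They also needed 1.5-fold at some time, and their direction is that of the largest change. They are not a union of the calls at single times, so their share can be lower than that of a single time. The labels were checked on 4 genes. Pou5f1 fell by 2.18 on the late arrays at 24 hr, and on the early arrays it fell by 2.79 with 1 probe while the brightest probe differed by -0.55 and was not called. Socs3, a target of LIF signalling, fell by 2.62 without LIF, and Cyp26a1, a target of RA, rose by 3.47 on RA. The Nanog probe differed by 0.75 in the integrated clone (limma adjusted p = 0.0702) and by -0.57 in the clone labelled episomal (adjusted p = 0.434). Neither was called, and whether this probe lies within the transgene is not known here. By real-time PCR, the study's methods report raised Nanog expression in both clones, far more so in the episomal one.

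Markers of cell types moved with the conditions. On the late arrays the mean of 6 ES cell markers went from between 3.0 and 3.33 at 0 hr to between 0.83 and 0.87 at 120 hr, with 5 markers called lower. The mean of 10 trophoblast markers went from between -0.63 and -0.29 to between 2.23 and 2.42, with 8 called higher at some time, and 2 of 6 primitive endoderm markers and 1 of 6 fibroblast markers were called higher. Of all gene probes, 14.2% were called higher and 10.4% lower over the late series. In bulk RNA fewer cells of a type and less RNA per cell cannot be told apart, and the part of changing cell types in the values below was not tested.

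Among the members, H19 and Meg3 are long non-coding RNAs. Their probes are shown because the same 60-base sequence was on all 3 designs, so their values below rest on identical probes.

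H19 probe: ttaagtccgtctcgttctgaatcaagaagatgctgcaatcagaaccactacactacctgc

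Meg3 probe: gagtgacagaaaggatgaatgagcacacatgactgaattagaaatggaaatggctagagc

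ZFP57 binds the hexamer TGCCGC when its CpG is methylated and keeps imprints in place after fertilization. Searched on both strands of 300-base promoter windows from RefSeq (GRCm38.p6), this hexamer was found in 12 of 51 windows of members (23.5%) and in 11.6% of all 32851 windows. Counted by gene, 11 of 33 members with a window held it (33.3%), against 13.1% of 27025 genes. Windows of a gene overlap and CpG-rich promoters hold more such hexamers, so this is a description of letters and not of binding sites. Mest and Meg3 were picked because their levels set the ES cell lines apart most, and each held it in some but not all windows. Of the other members called between lines, Grb10 held it in 1 window, and Gnas, Ndn and Zrsr1 lacked it. A link between the hexamer and these levels was not tested. For Mest and Meg3 the 250 bases before a start site are given with the hexamer in capitals on whichever strand it lies.

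Mest, chr6:30737800-30738049, plus strand: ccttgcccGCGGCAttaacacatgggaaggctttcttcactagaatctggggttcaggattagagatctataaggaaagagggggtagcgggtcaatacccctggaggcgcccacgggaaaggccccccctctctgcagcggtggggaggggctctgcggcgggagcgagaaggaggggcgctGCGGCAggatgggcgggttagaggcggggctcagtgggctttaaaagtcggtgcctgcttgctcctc

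Meg3, chr12:109540746-109540995, plus strand: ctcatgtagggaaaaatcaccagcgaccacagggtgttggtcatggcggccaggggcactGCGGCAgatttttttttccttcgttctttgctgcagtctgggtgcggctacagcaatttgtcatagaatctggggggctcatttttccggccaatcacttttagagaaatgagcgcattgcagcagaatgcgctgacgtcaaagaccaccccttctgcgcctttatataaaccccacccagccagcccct

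The late arrays ask how the members responded as Pou5f1 was shut off over 5 days. Of 37 members, 19 were called at some time, 15 higher and 4 lower, which is 51.4% against 24.5% of all 20702 gene probes tested over the series (14.2% higher and 10.4% lower). The largest rises were in maternally expressed genes of the Kcnq1 cluster, and the largest fall was in Ddc. Of the 21 maternally expressed members, 8 were called higher and 2 lower, and of the 16 paternally expressed members, 7 were called higher and 2 lower. At 120 hr the medians of the changes were 0.23 over the maternally and 0.16 over the paternally expressed members, beside 0.0 over all gene probes. The difference between both classes was not tested.

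The calls accumulated with time, and all times were compared with the same 3 arrays at 0 hr. At 24 hr 5 members were called higher and 3 lower, 21.6% of the members beside 7.58% of all gene probes (3.95% higher and 3.63% lower). At 48 hr 10 members were called higher (5.44% of all gene probes) and 1 lower (4.81%), 29.7% of the members beside 10.3%. At 72 hr 12 were called higher (7.96%) and 1 lower (6.39%), 35.1% beside 14.3%, and at 96 hr 14 were called higher (10.6%) and 1 lower (7.26%), 40.5% beside 17.8%. At 120 hr 14 were called higher and 2 lower, 43.2% of the members beside 20.6% of all gene probes (12.1% higher and 8.53% lower). On the arrays of 120 hr 19 members lay above all arrays of 0 hr (26.6% of all gene probes did), 4 lay below all of them (25.0% of all gene probes), and 14 overlapped.

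**Figure D1:**
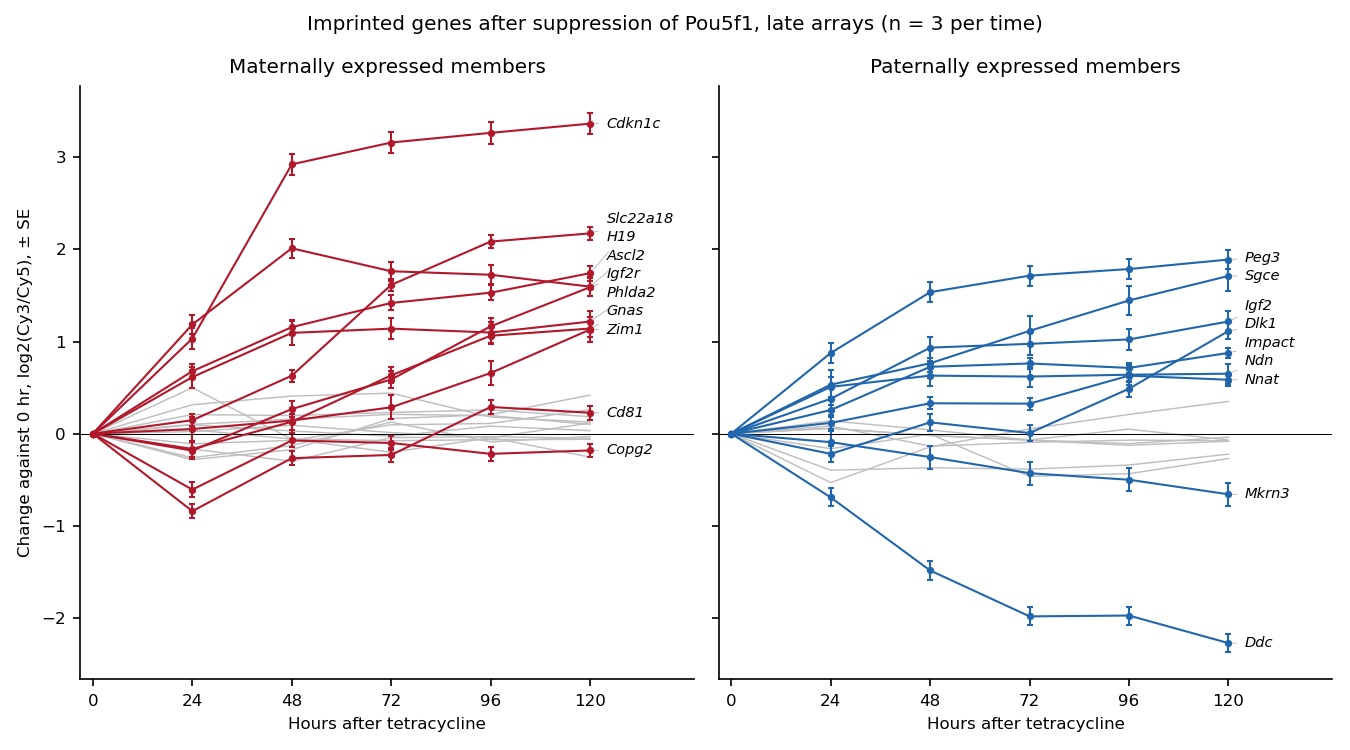
Change of each member against 0 hr on the late arrays, in log2(Cy3/Cy5) ± SE with 3 arrays per time, against hours of Tet. Coloured lines are members called at some time (maternally expressed in red, paternally expressed in blue), and grey lines are members not called. Cdkn1c reached 3.37, and Ddc fell to -2.27.

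In the Kcnq1 cluster, 4 of 8 members rose, and all 4 act in or are strongly expressed in the placenta. Cdkn1c encodes the cell cycle inhibitor p57. It read 1.03, 0.98 and 1.22 at 0 hr, 2.27, 2.12 and 1.93 at 24 hr, followed by 4.01, 3.98 and 4.0 at 48 hr. At 72 hr it read 4.42, 4.05 and 4.23, at 96 hr 4.51, 4.3 and 4.21, ending with 4.67, 4.27 and 4.38 at 120 hr. Each array from 24 hr on lay above every 0 hr array, and most of the rise of the ratio was in place by 48 hr. The mean Cy3 signal went on from 4901 units at 48 hr to 14920 at 120 hr. Mean Cy5 signal of the reference went from 614.9 to 983.7 units between these times, so the timing of the ratio is not that of the sample signal. At 120 hr the change was 3.37 ± 0.12 (SE, n = 3 per time), 10.3-fold, with an adjusted p of 1.9e-13 in limma's test.

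Ascl2, a bHLH transcription factor needed for the spongiotrophoblast of the placenta, rose fastest at first and then came back in part. Its arrays read 0.87, 0.96 and 1.15 at 0 hr, 2.24, 2.4 and 1.9 at 24 hr, 2.99, 2.99 and 3.03 at 48 hr, followed by 2.66, 2.84 and 2.77 at 72 hr. They read 2.68, 2.73 and 2.75 at 96 hr and 2.43, 2.7 and 2.64 at 120 hr. The change was 2.01 ± 0.10 at 48 hr (limma adjusted p = 1.6e-10) and 1.60 ± 0.10 at 120 hr, and whether the difference of these changes passes a test was not examined.

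Slc22a18, which encodes a transporter of the organic cation family, rose later. It read 0.73, 0.81 and 0.91 at 0 hr, 0.97, 0.97 and 0.95 at 24 hr, 1.58, 1.46 and 1.3 at 48 hr, followed by 2.48, 2.43 and 2.39 at 72 hr. It then read 2.91, 2.98 and 2.82 at 96 hr and 3.0, 2.96 and 3.01 at 120 hr, a change of 2.17 ± 0.07 (limma adjusted p = 4.5e-14). Its 3 arrays at 24 hr stood above those of 0 hr by less than the fold threshold, and it was called from 48 hr on.

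Phlda2, a pleckstrin homology domain protein that restrains placental growth, read 1.2, 1.41 and 1.52 at 0 hr and 1.93, 2.05 and 1.98 at 24 hr. At 48 hr it read 2.55 and 2.38 with 1 spot set to missing, at 72 hr 2.6, 2.4 and 2.54, at 96 hr 2.67, 2.41 and 2.33, ending with 2.83, 2.38 and 2.56 at 120 hr. The change at 120 hr was 1.22 ± 0.11 (limma adjusted p = 1.7e-07).

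For the brightest of these genes the ratio gave a smaller change than the sample channel alone. The Cy3 signal of Phlda2 went from a mean of 1048 to 12710 intensity units between 0 and 120 hr, while its Cy5 signal, which should be the same on all arrays, went from 572.3 to 2501. The Cy3 signal of Cdkn1c went from 759.7 to 14920 and its Cy5 signal from 470.9 to 983.7. With Cy3 alone, quantile normalized, the changes were 4.58 for Phlda2 and 5.94 for Cdkn1c. The Cy5 signal of a member spanned more than 2-fold on the late arrays for 4 of 37 members (Cdkn1c, Phlda2, Copg2 and Mest), with a median span of 1.22-fold. A correction for bleaching of Cy5, as the study's methods describe it, left the changes of Phlda2 at 1.29 and of Cdkn1c at 3.47, and no member called at 120 hr lost its call with it.

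The other 4 members of the Kcnq1 cluster were not called higher at any time. Cd81, a tetraspanin, was called lower only at 24 hr. It read -0.88, -0.99 and -0.67 at 0 hr and -1.72, -1.66 and -1.67 at 24 hr. The difference was -0.84 ± 0.08 (limma adjusted p = 2.7e-07). At 48 and 72 hr Cd81 differed by -0.27 and -0.23, under the fold threshold. By 96 hr it read -0.53, -0.53 and -0.61. The potassium channel gene Kcnq1 differed by 0.18 at 120 hr, Nap1l4 by 0.10 and Tssc4 by -0.25, none of them called.

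H19 and Igf2 share enhancers and are expressed from opposite parental copies, H19 from the maternal one and the growth factor Igf2 from the paternal one. Both rose. H19 read -0.1, -0.06 and -0.22 at 0 hr, 0.68, 0.5 and 0.47 at 24 hr, 1.04, 1.06 and 1.0 at 48 hr, 1.23, 1.32 and 1.33 at 72 hr, 1.25, 1.4 and 1.56 at 96 hr, followed by 1.47, 1.68 and 1.69 at 120 hr. The change was 0.68 ± 0.08 at 24 hr and 1.74 ± 0.08 at 120 hr (limma adjusted p = 9.4e-12), and no array from 24 hr on overlapped with 0 hr.

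Igf2 read -0.17, -0.26 and -0.2 at 0 hr, 0.07, 0.19 and 0.24 at 24 hr, 0.52, 0.84 and 0.8 at 48 hr, 0.6, 0.77 and 0.92 at 72 hr, 0.5, 0.98 and 0.95 at 96 hr, followed by 0.89, 1.09 and 1.03 at 120 hr. It was called from 48 hr on, with a change of 1.22 ± 0.12 at 120 hr (limma adjusted p = 1.3e-07). Its Cy3 signal stayed low, at a mean of 730.0 units at 0 hr and 1204 at 120 hr, so the genes of this pair rose over dim signals.

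Igf2r, the maternally expressed receptor that takes IGF2 up for degradation, was called higher from 72 hr on. It read -0.15, -0.45 and -0.42 at 0 hr, -0.47, -0.68 and -0.43 at 24 hr, -0.21, -0.02 and 0.0 at 48 hr, 0.11, 0.28 and 0.34 at 72 hr, followed by 0.81, 0.83 and 0.84 at 96 hr. At 120 hr it read 1.21 and 1.29 with 1 spot set to missing, a change of 1.59 ± 0.10 (limma adjusted p = 1.3e-09). The transporter genes Slc22a2 and Slc22a3 of the same cluster differed by 0.03 and 0.26 at 120 hr and were not called.

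**Figure D2:**
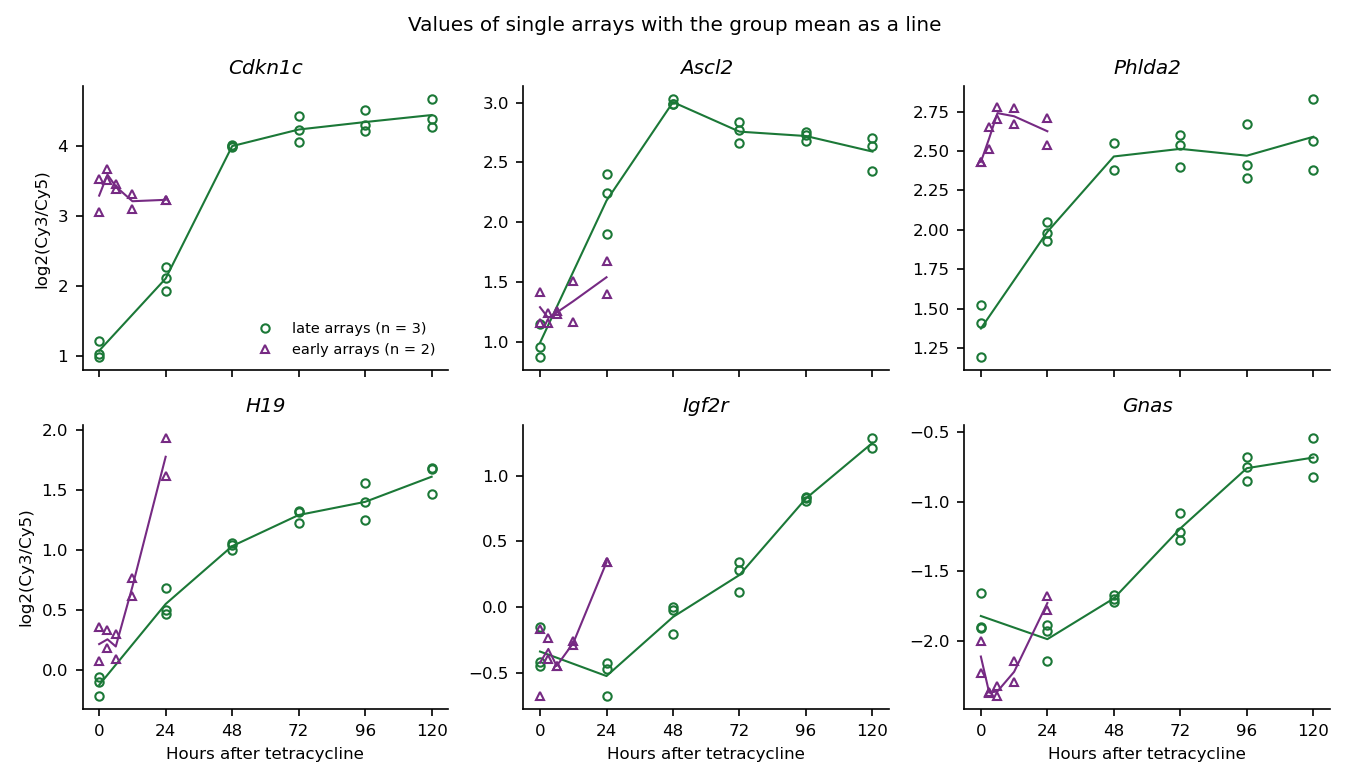
Value of each array in log2(Cy3/Cy5) against hours of Tet for 6 maternally expressed members. Circles are late arrays (3 per time), triangles are early arrays (2 per time), and lines join group means. Cdkn1c and Phlda2 began higher on the early arrays, and H19 and Igf2r rose by 24 hr on the early arrays.

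In the Peg3 cluster both directions of imprinting rose as well. Peg3, a paternally expressed zinc finger protein, read 1.05, 1.13 and 1.16 at 0 hr, 2.14, 2.21 and 1.62 at 24 hr, 2.72, 2.57 and 2.66 at 48 hr, 2.86, 2.81 and 2.82 at 72 hr, 2.98, 2.86 and 2.87 at 96 hr, followed by 3.02, 2.94 and 3.05 at 120 hr. The change at 120 hr was 1.89 ± 0.11 (limma adjusted p = 1.3e-10). The maternally expressed zinc finger gene Zim1 read 0.29, 0.31 and 0.19 at 0 hr, 0.33, 0.33 and 0.27 at 24 hr, 0.48, 0.45 and 0.28 at 48 hr, 0.57, 0.58 and 0.49 at 72 hr, 0.72, 1.02 and 1.02 at 96 hr, followed by 0.95, 1.57 and 1.65 at 120 hr. Peg3 stood apart from 0 hr on all arrays from 24 hr on, and Zim1 was called only at 96 and 120 hr, at 1.13 ± 0.13 (limma adjusted p = 1.5e-06). The Cy3 signal of Zim1 exceeded that of 95% of the negative control spots on 0 of 3 arrays at 0 hr and on 3 of 3 at 120 hr. That limit was itself between 627 and 653 units at 0 hr and between 506 and 511 at 120 hr. These counts therefore do not show that the gene came on. Usp29 of the same cluster differed by -0.08. The uncorrected Cy3 signal of Zim1 went from a mean of 586.5 to 616.5 units, and without background correction its change was 0.32 and was not called, so the size of the change rests on the correction of a dim signal.

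Sgce, the paternally expressed epsilon-sarcoglycan gene of the Peg10 cluster, read -0.46, -0.49 and -0.49 at 0 hr, 0.02, 0.15 and -0.02 at 24 hr, 0.01, 0.4 and 0.43 at 48 hr, 0.35, 0.83 and 0.72 at 72 hr, 0.62, 1.06 and 1.2 at 96 hr, followed by 0.93, 1.36 and 1.4 at 120 hr. The change was 1.71 ± 0.16 at 120 hr (limma adjusted p = 7.9e-08). Sgce too was above the negative controls on 0 of 3 arrays at 0 hr, when the limit set by these controls was higher than at 120 hr. Its mean Cy3 signal went from 583.1 to 720.9 units, and its change was 0.59 without background correction. Gnas, which encodes the alpha subunit of the stimulatory G protein, read -1.66, -1.91 and -1.9 at 0 hr, -1.93, -1.89 and -2.15 at 24 hr, -1.67, -1.7 and -1.72 at 48 hr, -1.28, -1.08 and -1.22 at 72 hr, -0.85, -0.68 and -0.75 at 96 hr, followed by -0.82, -0.54 and -0.69 at 120 hr. It changed from 72 hr on and by 1.14 ± 0.09 at 120 hr (limma adjusted p = 6.7e-09). The Gnas locus has several annotated start sites, and the probe was not placed on a transcript. Its class as maternally expressed is therefore that of the list and not of the transcript read.

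Paternally expressed Ddc, the aromatic amino acid decarboxylase that makes dopamine and serotonin, was the only member that fell by more than 2-fold on the late arrays. It read 1.54, 1.6 and 1.99 at 0 hr, 1.01, 1.07 and 0.99 at 24 hr, 0.16, 0.27 and 0.25 at 48 hr, -0.49, -0.15 and -0.18 at 72 hr, -0.3, -0.24 and -0.24 at 96 hr, followed by -0.58, -0.53 and -0.57 at 120 hr. All arrays from 24 hr on lay below all 0 hr arrays, and the change at 120 hr was -2.27 ± 0.10 (limma adjusted p = 3.7e-12). Its neighbour Grb10, an adaptor that dampens insulin receptor signalling, differed by 0.42 and did not reach the fold threshold.

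The remaining calls were smaller. Dlk1, a transmembrane protein related to Notch ligands, went from between -3.34 and -2.96 at 0 hr to between -2.1 and -2.01 at 120 hr, the only time it was called (1.11 ± 0.09, and 0.56 and not called without background correction), while Meg3 of the same cluster stayed below the negative controls on all 18 arrays. Impact, an inhibitor of the GCN2 pathway, rose by 0.88 ± 0.06 at 120 hr, Ndn, a MAGE family gene of the Snrpn cluster, by 0.65 ± 0.11, and the proteolipid gene Nnat by 0.63 ± 0.07 at 96 hr. Mkrn3, a zinc finger gene of the Snrpn cluster, fell by 0.66 ± 0.12 at 120 hr. The Cy3 signal of Mkrn3 was above the negative controls on 1 of 3 arrays at 0 hr and 0 of 3 at 120 hr, and the 95th percentile of those controls was itself higher at 0 hr (between 627 and 653 units) than later (at most 571 units at 24 hr). Mkrn3 lost its call without the third array of 0 hr (-0.55), and Ndn without the second array of 120 hr (0.56).

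Mest and Copg2 share a cluster. Copg2, a coatomer subunit, was called lower at 24 hr only (-0.61 ± 0.08), and differed by -0.22 at 96 hr, under the fold threshold. Mest, a paternally expressed hydrolase, had 2 probes that disagreed, since the brightest one differed by -0.08 at 120 hr while the other was called higher at 24 hr (0.91 ± 0.13), 96 hr (0.85) and 120 hr (0.67). Of the members, 5 were never above the negative controls on the late arrays (Magel2, Meg3, Plagl1, Ppp1r9a and Slc22a2), 23 were above them on all 18 arrays, and none was saturated.

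The early arrays ask which members responded within the first day. Within 12 hr none was called, and at 24 hr H19 and Igf2r rose and Ppp1r9a fell, all 3 maternally expressed. This was 3 of 37 members, 8.11% beside 8.86% of all gene probes (6.94% higher and 1.92% lower), a share close to that of the arrays as a whole. The same 3 were called over all times by the F test, which called 5.27% of all gene probes. At 3, 6 and 12 hr limma called 0 members, beside 0%, 2.18% and 0.597% of all gene probes. An unadjusted p below 0.05 was found for 4, 7 and 10 members. The share of all gene probes below that p is not given here, so nothing about the members is read from these counts.

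H19 read 0.36 and 0.07 at 0 hr, 0.33 and 0.18 at 3 hr, 0.3 and 0.09 at 6 hr, 0.62 and 0.77 at 12 hr, followed by 1.62 and 1.94 at 24 hr. Both arrays of 12 hr already stood above both arrays of 0 hr, and the change at 24 hr was 1.56 ± 0.14 (n = 2 per time, limma adjusted p = 0.00026). Igf2r read -0.68 and -0.17 at 0 hr, -0.24 and -0.4 at 3 hr, -0.45 on both arrays of 6 hr, -0.26 and -0.29 at 12 hr, and 0.34 on both arrays of 24 hr, a change of 0.77 ± 0.14 (limma adjusted p = 0.0085).

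Ppp1r9a, which encodes the actin-binding protein neurabin, read 1.92 and 1.95 at 0 hr, 1.96 and 2.11 at 3 hr, 1.77 and 1.99 at 6 hr, 2.36 and 2.08 at 12 hr, followed by 1.35 and 1.26 at 24 hr, a change of -0.63 ± 0.12 (limma adjusted p = 0.0088). Without the first array of 0 hr only H19 was still called at 24 hr. With the error variance used in the study's methods, which takes the larger of a probe's own variance and that of probes of similar intensity, 0 members were called, and the adjusted p of H19 was 0.154.

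Other probes of 2 members also passed on the early arrays at 24 hr, both chosen after their values were seen. For Kcnq1 these were 2 dimmer probes, which rose by 0.61 and 0.83, and for Mest 1 probe, which rose by 0.71. That Mest probe has the same sequence as the late probe that was not called.

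Both series contain 0 and 24 hr, so the changes over the first day can be compared on 19163 probes of identical sequence, which included 36 members. They differed at an adjusted p below 0.05 for 9 members (21.0% of all shared probes did), and by at least 1.5-fold in addition for 5 (14.4% of all shared probes). Both shares were close to those of the arrays as a whole, so the differences are given as values of single members. The count of 5 became 9 without the first early array of 24 hr and 4 without the second early array of 0 hr. Cdkn1c rose by 1.03 on the late arrays and differed by -0.06 on the early ones, a difference of 1.09 ± 0.20 (limma adjusted p = 0.0035). It had started at a mean of 1.07 on the late and 3.29 on the early arrays, and its early arrays ran from 3.05 to 3.67 throughout. Ascl2 rose by 1.185 and differed by 0.25, a difference of 0.94 ± 0.22 (adjusted p = 0.011).

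In the other direction, H19 rose by 0.68 on the late and by 1.56 on the early arrays (a difference of -0.89 ± 0.17, limma adjusted p = 0.0047). Igf2r differed by -0.18 on the late arrays and rose by 0.77 on the early ones (-0.95 ± 0.21, adjusted p = 0.0083). Ppp1r9a differed by 0.50 and fell by 0.63 (1.13 ± 0.20, adjusted p = 0.0022), but it was never above the negative controls on the late arrays. The series differ in experiment, array design, and depth of the starting signal, and these cannot be told apart.

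In the Nanog experiment the media were compared over the 4 lines, with the line as a term, so that each medium rests on 4 arrays. Each clone is related to its parental line, so these are not 4 independent replicates. RA asks which members change on differentiation in this way. With RA 10 of 37 members were called against LIF, all higher, 27.0% beside 5.86% of all gene probes (4.64% higher and 1.22% lower). They were 6 maternally expressed (Dcn, H19, Igf2r, Gnas, Grb10 and Cd81) and 4 paternally expressed members (Dlk1, Ndn, Sgce and Nnat). The genes of the Kcnq1 cluster that rose most after Pou5f1 was shut off were not among them: Cdkn1c differed by -0.24 with RA, Phlda2 by -0.26, Ascl2 by -0.05 and Slc22a18 by 0.13. The difference between both treatments was not tested, since they were on different arrays, lines and times.

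Dlk1 had the largest change with RA. In the order LIF, without LIF and RA, it read -2.76, -2.77 and -0.57 in 129.3, -3.51, -2.87 and -0.95 in the integrated clone, -3.49, -3.17 and -0.26 in MG1.19, and -3.79, -3.07 and -0.87 in the clone labelled episomal. All RA arrays stood above all others, and the change was 2.72 ± 0.17 (n = 4 per medium, limma adjusted p = 0.0001). Meg3, the non-coding RNA of the same cluster, differed by -0.03.

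H19 with LIF and with RA read -0.47 and 0.79 in 129.3, -0.7 and -0.1 in the integrated clone, -0.39 and 1.07 in MG1.19, and -0.78 and 0.31 in the clone labelled episomal, a change of 1.10 ± 0.18 (limma adjusted p = 0.0049). Igf2r read -0.93 and 0.46, -1.44 and -0.66, -0.87 and -0.09, and -1.67 and -0.22 in the same lines, a change of 1.10 ± 0.16 (adjusted p = 0.0024). For both genes the integrated clone was lowest of the lines with RA. Igf2 differed by 0.14 and was not called.

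Ndn read 1.54 and 2.97 with LIF and RA in 129.3, 0.93 and 1.66 in the integrated clone, 1.2 and 2.36 in MG1.19, and 0.66 and 1.97 in the clone labelled episomal, a change of 1.16 ± 0.16 (limma adjusted p = 0.0019). Dcn, the proteoglycan decorin, read -4.33 and -2.68, -4.85 and -4.52, -4.37 and -2.87, and -4.89 and -3.59, a change of 1.20 ± 0.24 (adjusted p = 0.013). The rise of Dcn was smallest in the integrated clone, and 2 of 6 fibroblast markers were called higher with RA as well (4.64% of all gene probes).

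Sgce read -0.11 and 0.61 with LIF and RA in 129.3, -0.26 and 0.24 in the integrated clone, -0.3 and 0.79 in MG1.19, and -0.13 and 0.92 in the clone labelled episomal, a change of 0.84 ± 0.10 (limma adjusted p = 0.00087). Cd81 read 0.02 and 0.81, 0.15 and 0.14, -0.21 and 0.3, and -0.65 and 0.53 in the same lines (0.62 ± 0.17, adjusted p = 0.046). Nnat read 1.37 and 1.93, 0.48 and 1.17, 0.55 and 1.33, and 0.31 and 1.28 (0.75 ± 0.19, adjusted p = 0.030). Each of these rose in all 4 lines except Cd81, which was level in the integrated clone.

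Leaving out 1 line at a time left 7 to 9 calls with RA, and Cd81, Nnat and Dcn were the members that lost theirs, Cd81 without any line but the integrated clone. With the methods' error variance 6 were called. Markers moved with RA too: 4 of 6 ES cell markers were called lower (1.22% of all gene probes), and 7 of 11 trophoblast and 4 of 6 primitive endoderm markers were called higher (4.64%).

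**Figure D3:**
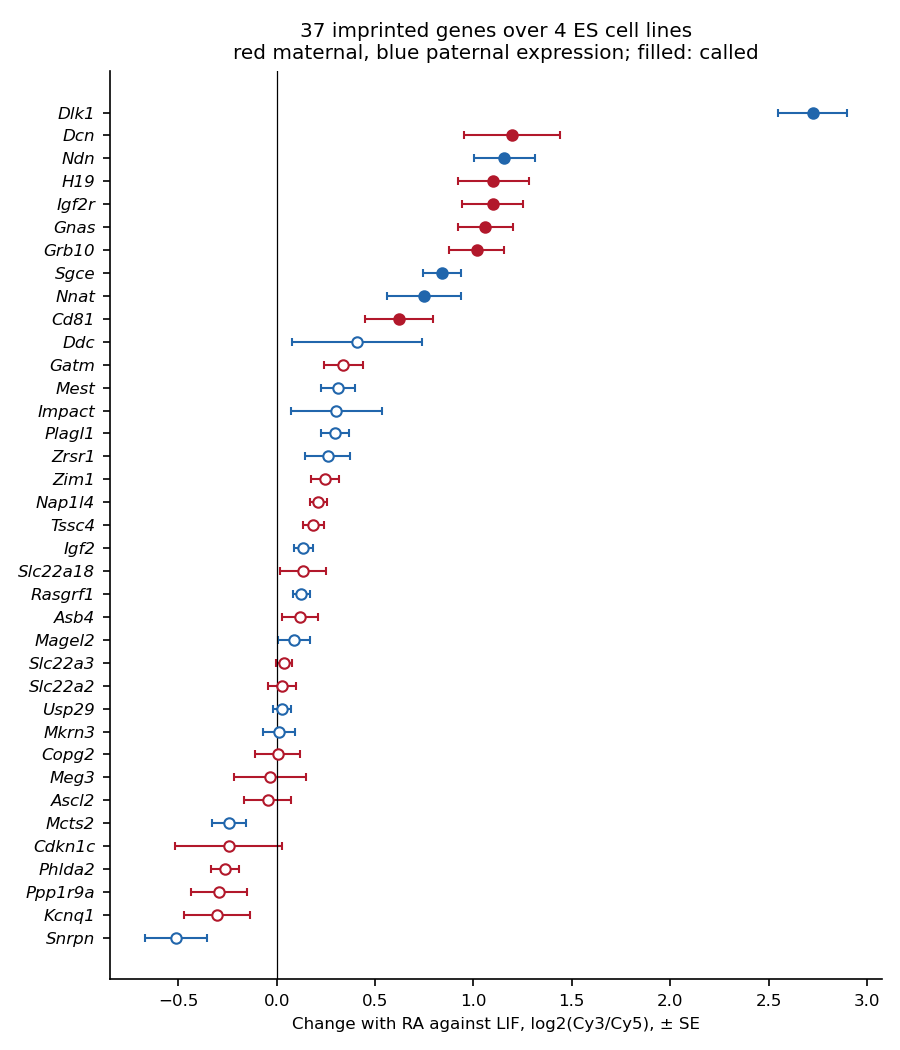
Change with RA against LIF for 37 members over the 4 lines, in log2(Cy3/Cy5) ± SE, ordered by size. Red is maternally and blue is paternally expressed, and filled points were called. All 10 called members lie above 0, from Dlk1 at 2.72 to Cd81 at 0.62.

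Without LIF, 1 of 37 members was called against LIF, 2.7% beside 1.03% of all gene probes. It was Magel2, a paternally expressed MAGE family gene, which with and without LIF read 0.63 and 1.14 in 129.3, 0.19 and 0.72 in the integrated clone, 0.35 and 1.1 in MG1.19, and 0.03 and 0.89 in the clone labelled episomal. The change was 0.66 ± 0.08 (limma adjusted p = 0.011), in the same direction in all 4 lines, and the call was lost when the clone labelled episomal, the integrated clone or MG1.19 was left out (adjusted p between 0.0503 and 0.185). With RA these lines read 0.44, 0.34, 0.43 and 0.34.

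The integrated clone was compared with its parental line 129.3 over the 3 media, and 5 of 37 members were called, 13.5% beside 4.23% of all gene probes (1.65% higher and 2.58% lower). Mest, Gnas, Grb10 and Ndn were lower and Zrsr1 was higher. In the clone labelled episomal limma called 0 members (0% of all gene probes), and the methods' error variance also called 0. An unadjusted p below 0.05 was found for 3 members, without a share of all gene probes to set beside it.

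Mest was the member that differed most. With LIF, without LIF and with RA it read 1.98, 2.12 and 2.4 in 129.3, 2.15, 2.42 and 2.28 in MG1.19, and 1.94, 2.31 and 2.53 in the clone labelled episomal, but -0.12, -0.13 and 0.0 in the integrated clone. The 3 arrays of the integrated clone lay more than 1.9 below all the others, and the difference was -2.25 ± 0.10 (n = 3 per line, limma adjusted p = 9.7e-05). The effect of the integrated clone differed from that of the clone labelled episomal by -2.23 ± 0.14 (adjusted p = 0.0015), and Mest was the only one of 37 members called for this difference (0.509% of all gene probes). The call was lost without background correction (-1.52, adjusted p = 0.0809), without the arrays grown without LIF (-2.28, limma adjusted p = 0.147) and with the methods' error variance (adjusted p = 0.640).

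The Cy3 signal of this Mest probe was between 435.3 and 454.8 units in the integrated clone, at the 19.2nd to 22.1st percentile of gene probes, and between 1090 and 5703 units in the other lines. Its Cy5 signal went with it, from 437.8 to 439.2 units in the integrated clone to as much as 1244 elsewhere, and with Cy3 alone the difference was -4.34. Of the other Mest probes, one was lower by 1.08 ± 0.22 (limma adjusted p = 0.021) and the other differed by -0.27 (adjusted p = 0.094). These probes share a stretch of 45 of their 60 bases, and the latter stayed between 1178 and 2820 units in all lines. It has the sequence of the late probe that was not called, while the probe that differed by -2.25 has the sequence of the late probe that rose.

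Gnas with LIF, without LIF and with RA read -0.94, -0.68 and -0.24 in 129.3 and -2.47, -1.73 and -1.72 in the integrated clone (-1.35 ± 0.16, limma adjusted p = 0.0034). In MG1.19 it read -2.0, -1.22 and -0.67 and in the clone labelled episomal -2.12, -1.43 and -0.65, so that its level in the integrated clone was nearer to these lines than to its parent with LIF. Grb10 read 1.49, 1.48 and 2.48 in 129.3, 0.46, 0.57 and 1.2 in the integrated clone, 1.7, 2.08 and 2.57 in MG1.19, and 0.87, 1.75 and 2.34 in the clone labelled episomal (-1.07 ± 0.16 in the integrated clone, adjusted p = 0.0070).

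Ndn without LIF read 1.69 in 129.3, 1.33 in the integrated clone, 1.47 in MG1.19 and 1.54 in the clone labelled episomal, and over the media it was lower in the integrated clone by 0.76 ± 0.18 (limma adjusted p = 0.037). Zrsr1, a paternally expressed gene related to the splicing factor U2AF, read 0.07, 0.13 and 0.46 in 129.3 and 0.91, 0.57 and 1.33 in the integrated clone (0.71 ± 0.13, adjusted p = 0.014). In MG1.19 it read 0.43, -0.31 and 0.51 and in the clone labelled episomal 0.53, -0.01 and 0.66.

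With the arrays without LIF left out, Mest alone was still called in the integrated clone. With the methods' error variance 0 members were, and Mest had an adjusted p of 0.0915. The clone and its parent had the same extraction day, which may be that of the scanned images and not of the RNA. The sample titles do not give a day of RNA preparation. Clone and parent are each 1 clone or culture, so a difference from the parent cannot be told apart from a difference between clones.

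**Figure D4:**
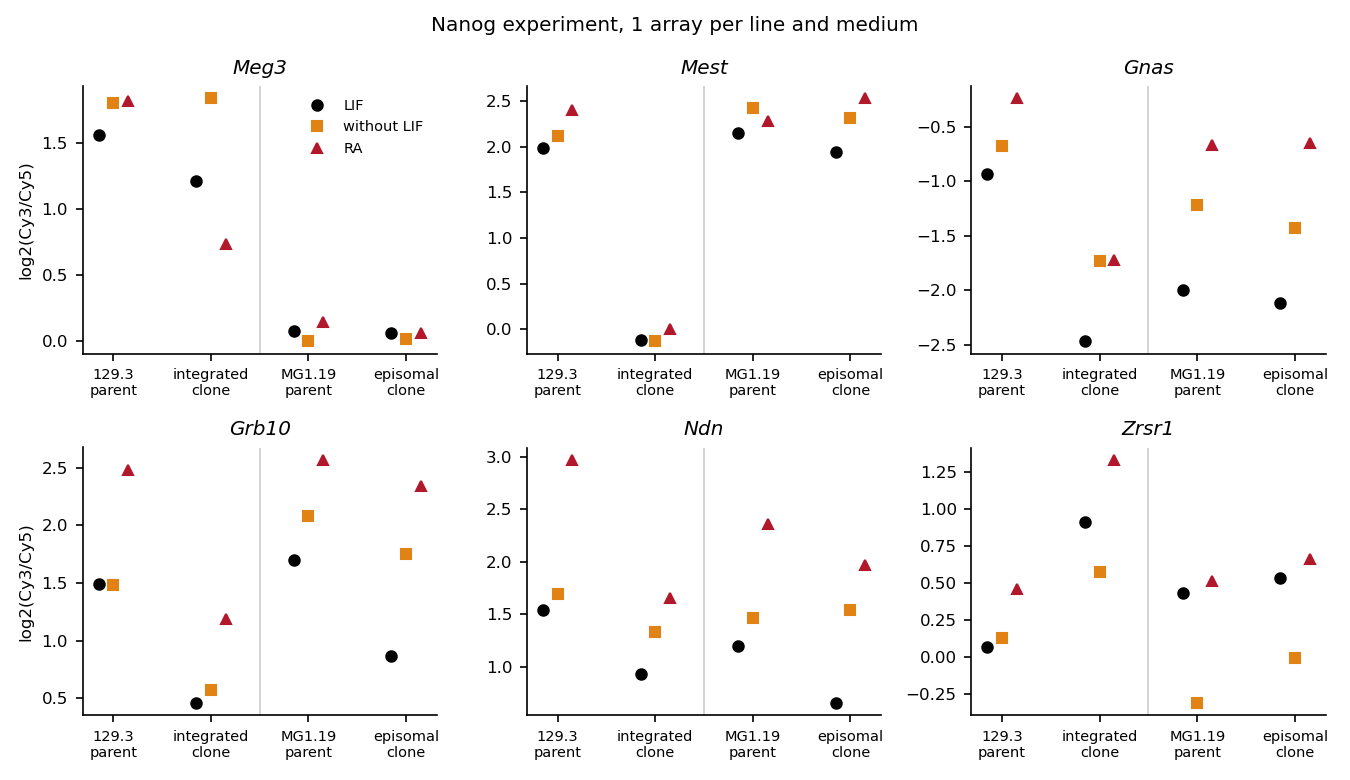
Value of each array in log2(Cy3/Cy5) for 6 members in the 4 lines of the Nanog experiment, with 1 array per line and medium. Circles are LIF, squares are without LIF and triangles are RA. Meg3 separates the lines of the left pair from those of the right pair, and Mest is near 0 only in the integrated clone.

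Meg3 separated the parental lines, and it was the only member called between them, 1 of 37 (2.7%) beside 0.589% of all gene probes. With LIF, without LIF and with RA it read 1.56, 1.8 and 1.82 in 129.3 and 0.08, 0.0 and 0.15 in MG1.19, a difference of -1.65 ± 0.21 (n = 3 per line, limma adjusted p = 0.012). The transgenic clones lay with their parents, at 1.21, 1.84 and 0.74 in the integrated clone and at 0.06, 0.02 and 0.06 in the clone labelled episomal. In terms of Cy3 signal, the probe was at the 7.49th to 12.3rd percentile of gene probes in MG1.19 and its clone and at the 38.1st to 60.3rd in 129.3 and its clone. In ZHBTc4 cells the same sequence was at the 5.29th to 18.9th percentile on the late and the 6.09th to 8.59th on the early arrays.

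Each pair of lines had an extraction day of its own, which may be that of the scanned images. For Meg3 the line, its strain and passage, and that day cannot be told apart. The adjusted p was between 0.072 and 0.18 when any 1 medium was left out, where the size of the difference stayed between -1.57 and -1.74. Dlk1, which lies in the same cluster and is expressed from the other parental copy, differed by -0.28 between the parents and was not called.

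Other genes of the machinery that keeps imprints moved with Pou5f1 on the late arrays. Of 17 maintenance factors listed, 14 were measured and 12 were called at some time, 7 lower (10.4% of all gene probes) and 5 higher (14.2%). Trim28, the co-repressor that ZFP57 recruits, fell by 1.86 at 120 hr, Zfp57 itself by 0.99, Dppa3, which shields imprints in the zygote, by 1.14, and Uhrf1, which brings DNMT1 to hemimethylated DNA, by 0.93. The maintenance methyltransferase gene Dnmt1 rose by 1.00 and Smchd1 by 1.10 at 120 hr. On the early arrays at 24 hr Dppa3, Ehmt2 and Eed were called lower (1.92% of all gene probes) and Dnmt3l higher (6.94%), while Trim28 differed by -0.09 and Zfp57 by -0.51 and were not called. With RA 4 of the 14 were called lower (Trim28, Dnmt3l, Hells and Eed, beside 1.22% of all gene probes), and in the integrated clone 3 were called higher (Trim28, Dnmt3l and Eed, beside 1.65%). With the methods' error variance 11 were called at some time on the late arrays, 0 on the early arrays at 24 hr, 1 with RA and 0 in the integrated clone.

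Of 14 genes of the insulin-like growth factor axis, 12 were measured on the late arrays, and 4 were called at some time (24.5% of all gene probes). Igfbp4 rose by 2.16 and Igfbp6 by 1.34 at 120 hr, Igfbp3 rose by 0.69 at 24 hr, and Igfbp2 fell by 1.27 at 120 hr, and the other 8 were not called. These binding proteins hold IGF1 and IGF2 outside the cell.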

How the data were processed

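The deposited files were scanner output of Agilent Feature Extraction 7.5 for each of 40 arrays, with signals and local background of the spots in intensity units, and the authors' normalized table of each design in log10 units. One column of the Nanog table, deposited on the same log10 scale, was treated as a score only because 10 of its cells hold a missing-value code, which was set to missing. These tables served only as an alternative.

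From the mean signals, log2(Cy3/Cy5) was derived in R 4.3.3 (limma 3.58.1). Spots flagged as outliers were set to missing (8 values of members). Normexp (offset 50) removed background, dyes were balanced by loess within arrays, and spots of a probe were averaged, with no scaling between arrays. Each array series was fitted on its own with lmFit and eBayes (two-sided, groups by time, or line plus medium), and the 24 hr comparison used shared probes. The size of changes of dim genes depends on this background correction, and the number of arrays limits the precision. No dyes were swapped, so a dye effect on a probe drops out only of differences. The step was tested on simulated data.

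The members, lists and tests were chosen with earlier results of these data known. Array values are given for members changed at least 2-fold on the late arrays, the 12 largest, and for members called elsewhere, and the rest by range or count. Alternatives were other background corrections and normalizations, a correction for Cy5 bleaching, Cy3 alone, a filter on dim probes, the methods' error variance, any probe of a gene, a replicate block and left-out arrays. Replicate numbers were not used to pair arrays in the main fit. Residuals of same-numbered late arrays correlated between -0.43 and 0.75, with a mean of 0.15 against -0.07 for other numbers. On the early arrays they correlated between -0.14 and 0.34, with a mean of 0.11 against -0.11. These values do not settle whether the numbers pair arrays.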

Additional observations from a re-analysis of the deposited data

Results flagged for a closer look

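The changes over the first 24 hr of Tet, late minus early arrays in log2 units, differed by limma's test for 9 of 36 members, beside 21.0% of all shared probes. They were 1.128 for Ppp1r9a, 1.091 for Cdkn1c, 0.936 for Ascl2, -0.95 for Igf2r and -0.885 for H19, and, under 1.5-fold, -0.557 for Copg2, -0.551 for Gnas, -0.539 for Cd81 and 0.431 for Impact. The probe of Ppp1r9a was above the negative controls on 0 of 18 late arrays. In each case the changes in the separate series were tested on the same probe sequence. Copg2 differed by -0.61 and -0.05 on the late and early arrays, Gnas by -0.17 and 0.39, Cd81 by -0.84 and -0.30, and Impact by 0.26 and -0.17. The effect of the integrated clone on Mest differed from that of the clone labelled episomal by -2.232 by the same kind of test, a call that 3 alternatives took away.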

How the results depend on the processing

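Of 667 values recomputed for 37 called changes of members, 603 stayed on their side of the thresholds, 64 lost the call and 0 turned their direction. Correction for Cy5 bleaching took the call from Ppp1r9a on the early arrays (-0.53) and from Cd81 and Nnat with RA (adjusted p of 0.0608 and 0.0536). The late counts of 16 at 120 hr and 19 over all times stayed within 12 to 18 and 13 to 20, the lowest without background correction, which lost Dlk1, Mkrn3, Ndn and Zim1 at 120 hr. Without background correction the early count over all times was 1, that without LIF 0, between parents 0 and for the difference of both clone effects 0. With Cy3 alone the early counts were 5 at 24 hr and 6 over all times, and without LIF 3 were called, as with the scanner software's processed signals (3) and the authors' table (3). With the methods' error variance the early counts were 0 and 0, without LIF 0, RA 6, integrated clone 0, parents 0 and difference of the clone effects 0. Counting any probe of a gene gave 5 and 5 on the early arrays and 2 without LIF. With pairs of transgenic and parental arrays as a block 2 were called for the difference of the clone effects, Gnas beside Mest. The 24 hr difference between series was called for 11 members with processed signals. The cause of these shifts was not tested.

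With arrays left out the ranges were 15 to 17 at 120 hr and 18 to 20 over all times on the late arrays, 1 to 4 and 1 to 3 on the early arrays, 4 to 9 for the 24 hr difference, 0 to 3 without LIF, 7 to 9 with RA, 1 to 4 for the integrated clone, 0 to 0 for the clone labelled episomal, 0 to 0 between parents and 0 to 1 for the difference of the clone effects. A replicate block left the late counts at 16 and 19 and gave 3 at 24 hr and 4 over all times on the early arrays. A date or slide as a block was not run, because each array had its own slide and each Tet series had 1 extraction day. Whether that is a day of the RNA or of the scanned images is not said in the sample titles. On the late arrays between 16.3% and 30.2% of gene probes lay below the 95th percentile of the negative controls, which limits what can be said of dim members.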

Other observations

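In the integrated clone 5 of 13 measured genes of the insulin-like growth factor axis were called lower than in 129.3 (2.58% of all gene probes) and none higher (1.65%), and 0 with the methods' error variance. Igf1r, the receptor for IGF1 and IGF2, was lower by 2.12 (limma adjusted p = 0.0051), Igfbp3 by 2.10, Igf2bp3 by 1.71, Igfbp4 by 1.15 and Pappa, a protease that cleaves binding proteins, by 0.81. In the same clone Igf2 differed by -0.06 and H19 by -0.34, and Igf2r by -0.65, none of them called. On the early arrays at 24 hr, 5 of the 13 genes were called higher (Igf1, Igf1r, Igfbp2, Igfbp4 and Igfbp5, beside 6.94% of all gene probes) and Igf2bp2 lower (1.92%), and again 0 with the methods' error variance. Igfbp2, higher there by 1.23, was lower on the late arrays at 120 hr by 1.27.

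The level of Cdkn1c in untreated ZHBTc4 cells differed between both experiments. Its Cy3 signal at 0 hr was 2742 and 2487 units on the early arrays and 759.7 on average on the late arrays, where it passed the early level by 48 hr (4901 on average). Phlda2 likewise had 2455 and 2125 units at 0 hr on the early arrays against 1048 on the late arrays. These levels come from different designs that were normalized separately, and were not tested against each other.

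On the Nanog arrays, probes other than the brightest gave calls for Snrpn with RA (-0.92) and for Mcts2 without LIF (-0.63), while the brightest probe of each was not called.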
